A study of Mus musculus with 12 samples.

Results

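The expression of 7 genes of zinc handling was followed in mouse liver, among 27179 genes in the count table. They were the metallothioneins Mt1 and Mt2, the SLC39 importers Slc39a4, Slc39a5 and Slc39a14, and the SLC30 exporters Slc30a1 and Slc30a10. The genes were taken as a list of names and found by matching the Entrez identifiers of the table to symbols. All 7 were in the table, and all 7 passed the filter on low counts. They were chosen by name with results of these data in view, among them the level of Mt2 in 1 liver, so the number of them that changed is a description and supports nothing beyond it.

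RNA was sequenced in bulk from 12 livers, 1 library per mouse, in 4 groups of 3. Young adult male mice received either a low-protein diet (LPD) or a chow diet (CD). Plasmids then reached their hepatocytes through the tail vein, by hydrodynamic injection, and were inserted into the genome by the Sleeping Beauty transposase. CD Vec and LPD Vec mice received the empty vector, and the labels also call them WT. CD c-MET/β-catenin and LPD c-MET/β-catenin mice received human c-MET together with ΔN90-β-catenin, a form of β-catenin that lacks its amino terminus and escapes degradation. Each mouse kept its diet, and all groups were taken when the CD c-MET/β-catenin mice reached their end point. For an early time point the paper proposes that few hepatocytes had taken up the oncogenes. The share of transfected hepatocytes in these livers was not measured here. The labels give the cell type as hepatocyte, while the RNA came from snap-frozen liver tissue. Hepatocyte markers summed to between 90773 and 139097 CPM per library (read counts over the library total scaled by the trimmed mean of M values, TMM, times 1e6), and markers of other liver cells were also present. In bulk RNA, more or fewer cells of a type and more or less RNA per cell cannot be told apart.

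Metallothioneins are small proteins rich in cysteine that bind zinc and copper in the cytosol. When free zinc rises, the metal-responsive factor MTF-1 binds metal response elements (MREs) in the promoters of Mt1, Mt2 and Slc30a1 and switches them on. Metallothioneins also respond to glucocorticoids, inflammatory cytokines, hypoxia and oxidative stress, and the liver is a main site of their synthesis. SLC39 (ZIP) proteins bring zinc into the cytosol, and SLC30 (ZnT) proteins move it out of the cell or into vesicles. Zinc itself was not analysed here.

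Start-site sequence of the genes switched on by metal is shown because the core letters of the MRE lie there. The windows held 250 bases before and 50 bases after a start site in RefSeq (GRCm38.p6), and were given for 5 of the 7 genes. Slc39a5 had 2 of the 6 windows, and Slc39a4 and Slc39a14 were named only. Mt2 lies on chromosome 8, plus strand, from 94172618 to 94173567, and Mt1 follows it from 94178883 to 94180327, with 5315 bases between them. Slc30a1 lies on chromosome 1, plus strand, from 191906697 to 191913248. The stretches below run 5′ to 3′ on the plus strand, and capitals mark matches to the MRE core, searched as TGCACNC and TGCGCNC on both strands. Mt2 is given for all bases before its start site (chr8:94172368-94172617). Mt1 is given as the last bases before its start site (chr8:94179059-94179088) and the first bases after it (chr8:94179089-94179118), and Slc30a1 as a short stretch that holds a match (chr1:191906731-191906760).
Mt2, before the start: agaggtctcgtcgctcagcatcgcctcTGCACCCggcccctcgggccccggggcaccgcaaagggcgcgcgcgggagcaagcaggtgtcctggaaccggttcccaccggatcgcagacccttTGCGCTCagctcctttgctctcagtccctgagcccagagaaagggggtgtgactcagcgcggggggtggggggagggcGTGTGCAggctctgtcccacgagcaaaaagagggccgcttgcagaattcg
Mt1, before the start: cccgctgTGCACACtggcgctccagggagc
Mt1, after the start: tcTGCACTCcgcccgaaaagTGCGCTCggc
Slc30a1: gggttccGAGTGCAaagcaaagtttttttg

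In the whole 300-base windows, Mt2 held 4 matches, Mt1 held 3 and Slc30a1 held 2. Slc30a10 held 3, of which 2 overlapped each other on opposite strands, and the windows of Slc39a5 held 0 and 1. Of 32851 mouse windows of this length, 25.7% held at least 1 match, 7.11% at least 2, 1.97% at least 3 and 0.517% at least 4. The start sites used for Mt1 and Slc30a1 lie 206 and 84 bases inside the span RefSeq gives the gene, so these windows depend on which start is taken. A match describes letters and does not show that a factor binds there.

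Mt1 and Mt2 were both highest by far in a single CD c-MET/β-catenin liver, replicate 1. Mt2 stood at 1.99, 29.3 and 14.3 CPM in replicates 1, 2 and 3 of CD Vec and at 2031, 64.2 and 38.2 CPM in CD c-MET/β-catenin. In LPD Vec livers Mt2 stood at 5.71, 27.4 and 2.51 CPM, and in LPD c-MET/β-catenin livers at 7.67, 16.3 and 14.9 CPM. The CD c-MET/β-catenin livers all lay above the other 9, but replicates 2 and 3 were much closer to the CD Vec livers than to replicate 1.

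Mt1 followed the same pattern at 8.25, 63.6 and 27.5 CPM in CD Vec and 2056, 86.0 and 61.1 CPM in CD c-MET/β-catenin livers. In LPD Vec livers Mt1 stood at 12.8, 29.2 and 6.26 CPM, and in LPD c-MET/β-catenin livers at 10.4, 24.4 and 30.4 CPM. For Mt1 the CD groups overlapped, since CD Vec replicate 2 exceeded CD c-MET/β-catenin replicate 3. Replicate 1 of CD c-MET/β-catenin supplied 95.2% of the summed Mt2 and 93.3% of the summed Mt1 of its group. Together the pair took 0.442% of all counts in that library and between 0.000856% and 0.0169% in the other 11. The group mean ± SD of Mt2 was 711 ± 1140 CPM (n = 3), and the mean of the other 2 livers of that group was 51.2 CPM. For Mt1 the corresponding values were 735 ± 1140 CPM (SD, n = 3) and 73.5 CPM.

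**Figure D1:**
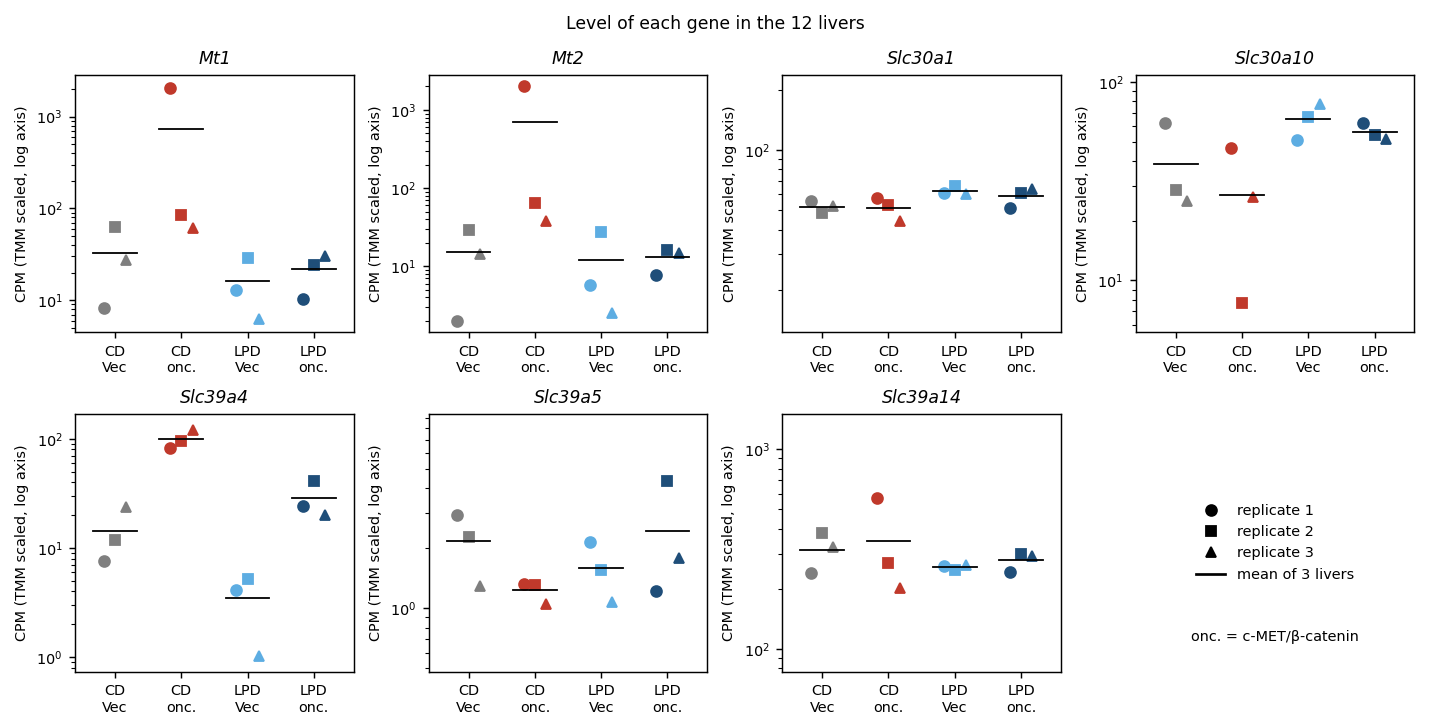
Level of each gene in CPM (log axis) in the 12 livers, by group; symbols give the replicate and lines the mean of 3 livers. Mt1 and Mt2 are at 2056 and 2031 CPM in 1 CD c-MET/β-catenin liver and at most 86.0 and 64.2 CPM in the other 11, Slc39a4 is highest in all 3 CD c-MET/β-catenin livers, and Slc30a1 stays between 44.1 and 66.2 CPM.

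The level in that liver was among the values that led to these genes being chosen, so the contrasts that contain it are given for Mt1 and Mt2 without a test. With all libraries, Mt1 and Mt2 differed between CD c-MET/β-catenin and CD Vec livers by a log2 fold change of 4.47 ± 1.35 (SE) and 5.55 ± 1.64 (SE). Without replicate 1 of CD c-MET/β-catenin it was 1.15 for Mt1 (adjusted p = 0.315) and 1.76 for Mt2 (adjusted p = 0.233, quasi-likelihood test of edgeR), and neither was called at an adjusted p under 0.05. For LPD against CD within c-MET/β-catenin livers, the log2 fold change was −5.08 ± 1.39 (SE) for Mt1 and −5.78 ± 1.65 (SE) for Mt2. Without that liver it was −1.75 for Mt1 (adjusted p = 0.185) and −1.98 for Mt2 (adjusted p = 0.238). The comparisons that do not contain it are given from the fit without it, since it also enters the spread of the fit to all libraries. On LPD, the difference between the injections was 0.43 ± 0.75 (SE, adjusted p = 0.884) for Mt1 and 0.12 ± 0.95 (SE, adjusted p = 0.979) for Mt2. In Vec livers, LPD against CD gave −1.03 ± 0.75 (SE, adjusted p = 0.637) for Mt1 and −0.34 ± 0.95 (SE, adjusted p = 0.928) for Mt2.

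Metallothionein levels also varied widely within the other groups. The highest liver exceeded the lowest by 14.8 times for Mt2 in CD Vec and by 10.9 times in LPD Vec, but by 2.13 times in LPD c-MET/β-catenin. The ratio of Mt2 to Mt1 counts was 0.988 in the CD c-MET/β-catenin liver with the highest levels and 0.241 in CD Vec replicate 1, which had the lowest Mt2. The ratio was 0.938 in LPD Vec replicate 2, where both genes were below 30 CPM, so a ratio near 1 was not limited to the highest liver. Mt1 and Mt2 are close paralogs, and how reads matching both were counted is not stated, so their split is uncertain. Mt3, the metallothionein of the brain, was at 0 counts in all 6 Vec livers and at most 7 counts in c-MET/β-catenin livers, and Mt4, of squamous epithelium, was at most 4 counts. Neither passed the filter.

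**Figure D2:**
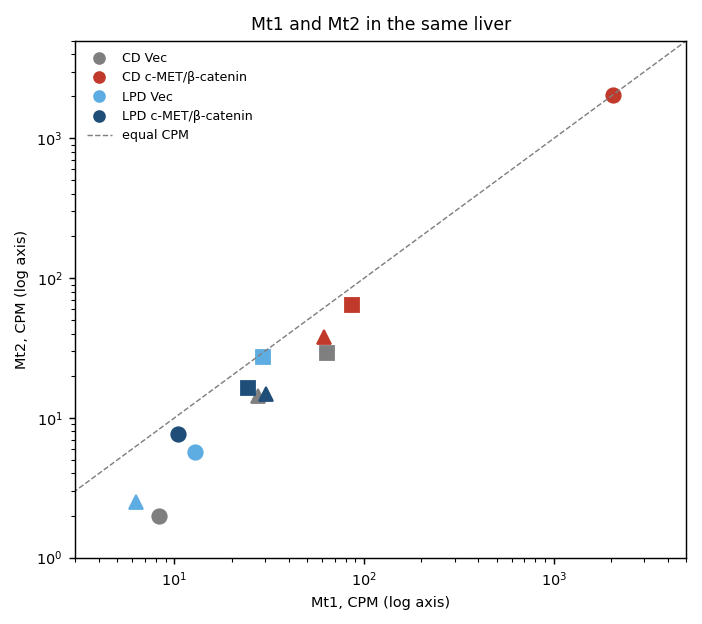
Mt2 against Mt1 in each liver, in CPM on log axes, with colour for the group, the same symbols for replicates (circle 1, square 2, triangle 3) and a dashed line for equal CPM. The 12 livers lie along 1 band, with 1 CD c-MET/β-catenin liver far above the others at 2056 CPM of Mt1 and 2031 CPM of Mt2.

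Some stress and inflammation genes were also high in CD c-MET/β-catenin replicate 1, and others were not. Heme oxygenase Hmox1 stood at 135 CPM there against 43.9 and 34.0 CPM in replicates 2 and 3, and the lipocalin Lcn2 at 860 CPM against 222 and 266 CPM. Fkbp5, a gene induced by glucocorticoids, stood at 204 CPM against 75.9 and 51.6 CPM, while CD Vec replicate 2, with the highest metallothioneins of CD Vec, stood at 170 CPM. The acute phase gene Saa1 stood at 46.0 CPM against 24.5 and 41.0 CPM, and at 126 CPM in CD Vec replicate 2. The 5 neutrophil markers summed to 17.8 CPM against 7.34 and 6.85 CPM. Over the whole lists these genes belong to, the acute phase genes summed to 24665 CPM in that liver and to between 12092 and 17359 CPM in the other 11. The glucocorticoid response genes summed to 1568 CPM there, below the 1578 CPM of CD Vec replicate 2, and the Nrf2 response genes to 975 CPM, below the 1383 CPM of CD c-MET/β-catenin replicate 3. On CD, where 18.7% of all tested genes rose and 16.7% fell, 3 of 13 tested acute phase genes rose and 2 fell, 6 of 8 Nrf2 response genes rose, and none of 8 glucocorticoid response genes was called or had an unadjusted p under 0.05 by edgeR. The part of any of these in the metallothionein levels was not tested. Mtf1, the gene of the metal sensor, was between 19.4 and 25.1 CPM in the CD c-MET/β-catenin livers and between 24.3 and 38.8 CPM in CD Vec livers, a log2 difference of −0.46 ± 0.17 (SE, unadjusted p = 0.0192, adjusted p = 0.0532), and edgeR called it in none of the 5 comparisons.

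Among the importers, Slc39a4 differed between the groups in all livers rather than in 1. Slc39a4 (ZIP4), on chromosome 15 from 76612383 to 76618506 on the minus strand, encodes the importer that absorbs dietary zinc in the intestine. It stood at 7.54, 11.9 and 23.5 CPM in CD Vec and at 82.4, 94.9 and 121 CPM in CD c-MET/β-catenin livers. Among LPD livers it stood at 4.13, 5.24 and 1.03 CPM after Vec and at 24.4, 41.5 and 20.0 CPM after c-MET/β-catenin. The groups did not overlap between injections on either diet, nor between diets within either injection. Of the 5 transporters, Slc39a4 was the 1 higher without overlap on CD and none was lower so, against 22.2% and 20.4% of all tested genes. On LPD, Slc39a4 was the 1 gene higher without overlap and none was lower so, against 13.5% and 11.6%.

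Slc39a4 rose in c-MET/β-catenin livers on both diets. On CD the log2 fold change was 2.79 ± 0.51 (SE, 6.92-fold, adjusted p = 0.0017), and on LPD it was 3.03 ± 0.54 (SE, 8.19-fold, adjusted p = 0.0201, quasi-likelihood test of edgeR). Of the 5 transporters, Slc39a4 was the 1 called on CD, where 35.4% of all tested genes were called, 18.7% higher and 16.7% lower. On LPD, Slc39a4 was the 1 gene called, where 1.32% of all genes were called, 1.15% higher and 0.165% lower. The call on CD held in all 12 fits that left out 1 library, with log2 fold changes from 2.48 to 3.36. The LPD call of Slc39a4 did not hold when any LPD Vec liver was left out (adjusted p = 0.0887, 0.0554 and 0.0556 for replicates 1, 2 and 3), nor without replicate 2 of the LPD oncogene livers (0.0688), with log2 fold changes from 2.61 to 3.46.

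Between diets, Slc39a4 was lower on LPD after either injection. The paper reports a lower tumor burden in LPD than in CD c-MET/β-catenin mice at this harvest. Diet and tumor burden therefore cannot be told apart in the c-MET/β-catenin livers. In c-MET/β-catenin livers Slc39a4 fell by 1.79 ± 0.49 (SE) on the log2 scale on LPD (adjusted p = 0.0251), as the 1 of the 5 transporters called, against 20.0% of all tested genes called, 11.3% lower and 8.66% higher. It was also the 1 of the 5 that was lower without overlap, as were 20.1% of all tested genes. For Slc39a4 the adjusted p was 0.0649 when replicate 3 of the CD oncogene livers was left out, and 0.0835 and 0.0929 when replicate 1 or 3 of the LPD oncogene livers was. In Vec livers the difference was −2.03 ± 0.53 (SE), with an unadjusted p of 0.00273 and an adjusted p of 0.139 in a comparison where 0.308% of genes were called (0.186% higher and 0.122% lower) and none of the 7 was. Of the 7, 1 had an unadjusted p under 0.05, as did 9.87% of all tested genes. The DESeq2 Wald test gave −2.05 ± 0.49 (SE) and an adjusted p of 0.00303 for this difference. In Vec livers, 2 of the 7 genes did not overlap between diets, Slc39a4 (lower) and Slc30a1 (higher), where 9.02% and 8.13% of tested genes were lower and higher in this way.

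The change of Slc39a4 with c-MET/β-catenin was not shown to depend on diet. The interaction was 0.24 ± 0.70 (SE, 95% interval −1.30 to 1.79, adjusted p = 0.864), an interval that leaves room for more than a 2-fold difference in either direction. For Mt1 and Mt2 the interaction was −4.04 ± 1.74 (SE) and −5.43 ± 2.06 (SE) with all libraries, and −0.72 and −1.64 without the highest liver. For the interaction none of the 5 transporters was called by edgeR or by DESeq2. Among these 5, 1, Slc39a5, had an unadjusted p under 0.05 by edgeR, as did 25.8% of all tested genes. Of all tested genes, 8.91% were called for the interaction by edgeR, 4.49% higher and 4.42% lower. In order of level, Slc39a4 had a mean ± SD of 99.3 ± 19.4 CPM in CD c-MET/β-catenin, 28.6 ± 11.4 in LPD c-MET/β-catenin, 14.3 ± 8.26 in CD Vec and 3.46 ± 2.18 in LPD Vec (n = 3 each). The middle groups overlapped, since CD Vec replicate 3 lay within the range of LPD c-MET/β-catenin.

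Marker genes of other cells moved with Slc39a4 on CD, in a comparison where 18.7% of all tested genes rose and 16.7% fell. In CD c-MET/β-catenin livers, 2 of 5 cholangiocyte markers rose, and the 5 summed to 121 to 382 CPM against 36.8 to 46.3 CPM in CD Vec. Most of this sum was Spp1, with a mean of 253 CPM against 34.7 CPM in CD Vec, while Krt19 had means of 5.76 and 0.761 CPM. Epcam, Sox9 and Krt7 overlapped between these groups, and the means of Epcam and Sox9 were lower in CD c-MET/β-catenin livers. The sum therefore mainly follows Spp1 and does not show a rise of the whole list. Of 6 stellate cell and fibroblast markers 4 rose and 2 fell, with sums of 144 to 586 CPM against 188 to 236 CPM, and all 5 proliferation markers rose, from 3.70 to 12.5 CPM up to 113 to 157 CPM. Of 3 neutrophil markers tested 2 rose, with sums of 6.85 to 17.8 CPM against 3.30 to 5.21 CPM, and of 7 hepatocyte markers 1 rose and 3 fell. Of the macrophage, T and NK cell and endothelial markers, 1 of 6 (Cd68) and 1 of 5 (Cd8a) rose and 1 of 5 (Clec4g) fell. CD c-MET/β-catenin replicate 3 had the highest Slc39a4 (121 CPM) and, within its group, the lowest cholangiocyte and stellate sums and the highest proliferation (157 CPM) and macrophage (332 CPM) sums. Of 3 enterocyte markers tested, 1 rose and 1 fell, and the 5 listed summed to 484 to 2618 CPM against 360 to 692 CPM, most of it Apoa4 and Fabp2, which liver also makes. Lct and Sis were at or near 0 in every liver, while Vil1 was at 4.48 to 15.3 CPM in the CD c-MET/β-catenin group and at most 0.156 CPM in CD Vec. The part of these in the level of Slc39a4 was not tested. On LPD, where Slc39a4 also rose, none of the cholangiocyte, stellate, neutrophil, macrophage, T and NK cell or enterocyte markers was called, and 3 of 5 proliferation markers were, against 1.32% of all tested genes. Of the 6 macrophage markers, 5 had an unadjusted p under 0.05 on LPD, as did 11.1% of all tested genes, with a median log2 fold change of 0.71 over the 6, and their sums were 209 to 363 CPM in c-MET/β-catenin and 156 to 194 CPM in Vec livers. On CD the macrophage sums were 185 to 332 CPM and 97.8 to 232 CPM. Of the 5 T and NK cell markers, 2 had an unadjusted p under 0.05 on LPD, with a median log2 fold change of 0.76 over the 5. Their sums were 2.98 to 4.99 CPM in c-MET/β-catenin and 1.25 to 2.10 CPM in Vec livers on LPD, and 2.74 to 4.79 and 1.68 to 2.40 CPM on CD. Between diets in c-MET/β-catenin livers, where Slc39a4 fell, all 5 proliferation markers, 2 of 5 cholangiocyte, 2 of 3 tested neutrophil, 1 of 3 tested enterocyte and 1 of 6 macrophage markers fell too. Of the stellate markers 4 fell and 2 rose, of the hepatocyte markers 2 of 7 fell and 1 rose, and 1 of 5 endothelial markers rose, against 11.3% of all tested genes lower and 8.66% higher. The part of these markers in the level of Slc39a4 was not tested.

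The libraries carry dataset numbers in the header that fall into 3 runs, which the labels do not explain. CD c-MET/β-catenin replicates 1 and 2 form a run of their own, and 7 libraries from all 4 groups form the largest. That run holds 3 livers of LPD c-MET/β-catenin, 2 of LPD Vec and 1 of each CD group, so its CD difference sets 1 liver against 1. Within it, the difference of Slc39a4 in log2 CPM between the injections was 2.35 on CD and 3.49 on LPD, against 2.92 and 3.23 over all libraries. Between LPD and CD it was −3.28 in Vec livers and −2.14 in c-MET/β-catenin livers within the run, against −2.15 and −1.84. With a term for the run in the fit, Slc39a4 on CD kept a log2 fold change of 2.79 but its adjusted p was 0.0527, and the calls on LPD (adjusted p = 0.0953) and between diets in c-MET/β-catenin livers (0.106) were lost too.

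**Figure D3:**
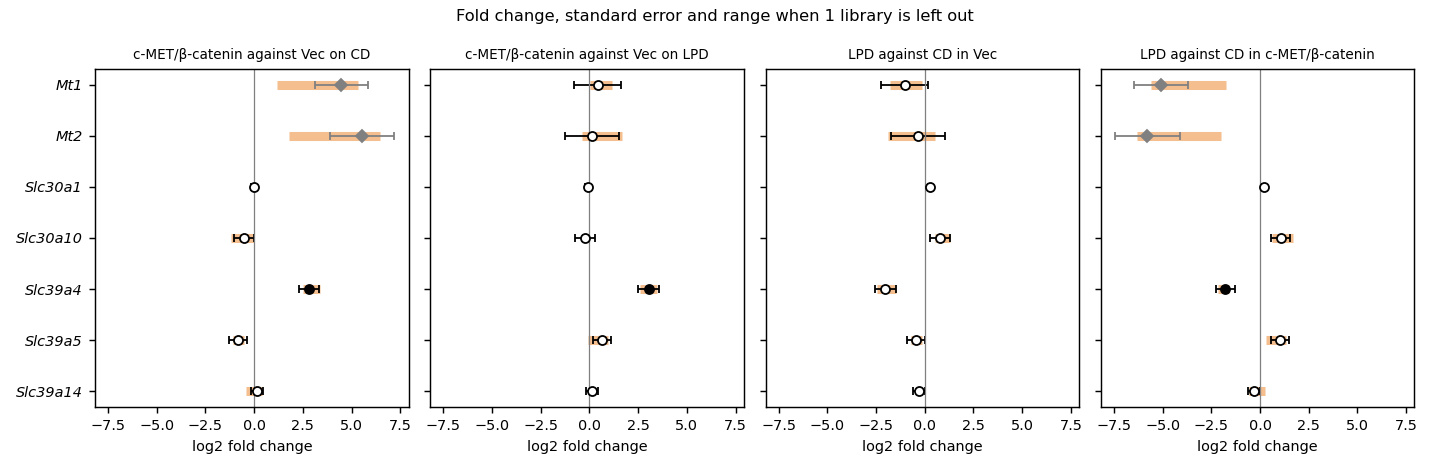
Log2 fold change of each gene in 4 comparisons; circles with bars are the fit to all 12 libraries with its SE, filled where the adjusted p was under 0.05, grey diamonds are Mt1 and Mt2 in the contrasts given without a test, and orange bands span the 12 fits that leave out 1 library. The bands of Mt1 and Mt2 reach down to 1.15 and 1.76 on CD, while that of Slc39a4 stays between 2.48 and 3.36.

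Slc39a14 was the most abundant of the 3 importers among the 7 genes and changed little between groups. Slc39a14 (ZIP14), on chromosome 14 from 70303467 to 70351452 on the minus strand, imports zinc, iron and manganese into hepatocytes and is known for its induction in the acute phase response. It stood at 241, 379 and 323 CPM in CD Vec and at 572, 269 and 202 CPM in CD c-MET/β-catenin livers. In LPD Vec it stood at 259, 248 and 263 CPM, and in LPD c-MET/β-catenin at 243, 299 and 292 CPM. The highest value came from the liver with the highest metallothioneins, and replicates 2 and 3 of that group lay within or below the CD Vec range. The log2 fold change was 0.15 ± 0.31 (SE, 95% interval −0.53 to 0.82) with all libraries on CD, and turned to −0.42 without that liver. On LPD it was 0.12 (−0.56 to 0.79). LPD against CD gave −0.29 (−0.97 to 0.38) in Vec livers and −0.32 (−1.0 to 0.35) in c-MET/β-catenin livers, the latter turning to 0.24 without the same liver.

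Slc39a5 had the lowest mean of the 7 genes in each group. Slc39a5 (ZIP5), on chromosome 10 from 128395927 to 128401276 on the minus strand, is a zinc importer known from the basolateral membrane of intestinal and pancreatic cells. It stood at 2.95, 2.27 and 1.30 CPM in CD Vec, 1.33, 1.31 and 1.05 CPM in CD c-MET/β-catenin, 2.16, 1.56 and 1.08 CPM in LPD Vec and 1.22, 4.32 and 1.79 CPM in LPD c-MET/β-catenin livers. All groups overlapped, and no library held more than 123 counts of the gene. The difference between diets in c-MET/β-catenin livers was 1.0 ± 0.46 (SE, 95% interval 0.01 to 2.0, adjusted p = 0.145), and from 0.30 to 1.32 when each library was left out in turn. On CD the difference between the injections was −0.82 ± 0.46 (SE, adjusted p = 0.19). Pancreatic acinar markers summed to at most 2.17 CPM in any liver.

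The exporter Slc30a1 was the steadiest of the genes. Slc30a1 (ZnT1) carries zinc out across the plasma membrane and is itself an MTF-1 target. It stood at 55.5, 48.3 and 52.3 CPM in CD Vec and at 57.3, 53.0 and 44.1 CPM in CD c-MET/β-catenin livers. In LPD Vec it stood at 61.2, 66.2 and 60.6 CPM, and in LPD c-MET/β-catenin at 51.1, 61.2 and 63.6 CPM. In the CD c-MET/β-catenin liver with 2031 CPM of Mt2, Slc30a1 was at 57.3 CPM, inside the range of the other livers. Between the injections, Slc30a1 differed by −0.02 on the log2 scale on CD (95% interval −0.29 to 0.26) and by −0.10 on LPD (−0.37 to 0.18). On CD the sign turned to 0.27 with scaling by total counts. In Vec livers the LPD livers lay above the CD livers without overlap, by 0.27 ± 0.12 (SE) on the log2 scale (unadjusted p = 0.0527, adjusted p = 0.512).

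Slc30a10 (ZnT10), on chromosome 1 from 185454848 to 185468762 on the plus strand, exports manganese from hepatocytes and belongs to the same family as the zinc exporters. It stood at 61.7, 28.4 and 25.0 CPM in CD Vec and at 46.5, 7.67 and 26.2 CPM in CD c-MET/β-catenin livers. With LPD it stood at 51.1, 66.7 and 77.7 CPM in Vec and at 61.8, 53.9 and 51.3 CPM in c-MET/β-catenin livers. The 6 LPD livers lay in a narrower range than the 6 CD livers. In c-MET/β-catenin livers the LPD group lay above the CD group without overlap, by 1.05 ± 0.51 (SE, adjusted p = 0.174), where 19.2% of tested genes were likewise higher without overlap. The difference was 0.61 to 1.71 when each library was left out in turn, and 1.71 (adjusted p = 0.0529) without replicate 1 of the CD oncogene livers. In Vec livers the groups overlapped, with 0.76 ± 0.51 (SE, adjusted p = 0.681). The exons of Mt2, Slc30a1 and Slc30a10 each overlap an antisense gene, and the strand setting of the counting is not stated, so reads of the pairs cannot be told apart.

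Per kilobase of exon (merged over GENCODE M21 transcripts), the order of mean level in CD Vec livers was Slc39a14 at 60.3 CPM per kb, then Mt1 at 26.6, Mt2 at 25.8, Slc30a1 at 9.92, Slc30a10 at 6.57, Slc39a4 at 5.20 and Slc39a5 at 1.01. The order depends on these merged lengths, 1246 bases for Mt1 and 588 for Mt2, which can exceed those of single transcripts. At these lengths Mt1 and Mt2 did not differ beyond their spread (SD 22.6 and 23.3 CPM per kb), nor did Slc30a10 and Slc39a4 (SD 3.47 and 3.00). In CD c-MET/β-catenin livers Slc39a4 stood at 36.0 ± 7.04 CPM per kb (SD, n = 3), above Slc30a1 at 9.81 ± 1.29. In LPD Vec livers Slc39a4 was at 1.26 ± 0.791 CPM per kb, next to Slc39a5 at 0.744 ± 0.252. The median log2 fold change of the 7 genes was 0.15 on CD and 0.12 on LPD between the injections, and −0.34 in Vec livers and −0.32 in c-MET/β-catenin livers between the diets, against −0.01, 0.011, −0.029 and −0.011 over all tested genes. Slc39a4 took different places in the order in different groups, whereas Slc39a14 was at 49.3 to 66.8 CPM per kb in all 4.

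The other zinc transporters of the 2 families changed less than Slc39a4. Of 19 further SLC30 and SLC39 genes, 16 passed the filter. On CD, 3 of them rose in c-MET/β-catenin livers and 1 fell, against 18.7% and 16.7% of all tested genes. Slc39a1 (ZIP1), a plasma membrane importer, rose from 63.2, 62.3 and 71.4 CPM to 92.3, 90.2 and 93.0 CPM (log2 fold change 0.48 ± 0.09 SE, adjusted p = 0.00165). Slc39a3 (ZIP3), a related importer, rose by 0.46 ± 0.13 (SE, adjusted p = 0.0148, but 0.0555 without replicate 2 of the CD oncogene livers), and Slc30a4 (ZnT4), a vesicular transporter, by 0.57 ± 0.15 (SE, adjusted p = 0.0109). Slc30a9 fell by 0.51 ± 0.16 (SE, adjusted p = 0.03), a call that did not hold with total counts (−0.22, adjusted p = 0.323), in the absence of the liver with the highest metallothioneins (−0.32, adjusted p = 0.0608), or without CD Vec replicate 1 or 3 (adjusted p = 0.0617 and 0.0641). The count of 4 was 3 without CD c-MET/β-catenin replicate 1, 7 without CD Vec replicate 2, and 0 with a term for the run.

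On LPD none of the 16 was called for c-MET/β-catenin against Vec by edgeR or DESeq2, and 1 had an unadjusted p under 0.05, where 1.32% of all tested genes were called by edgeR and 11.1% had such a p. Between diets in Vec livers none was called by edgeR and 1, Slc30a3, by DESeq2, with 3 at an unadjusted p under 0.05, against 0.308% of all tested genes called by edgeR and 9.87% with such a p. In c-MET/β-catenin livers on LPD, Slc39a1 fell by 0.46 ± 0.09 (SE, adjusted p = 0.00489) and Slc39a3 by 0.52 ± 0.13 (SE, adjusted p = 0.0136), where 11.3% of all tested genes fell. Neither call held with the run term (adjusted p = 0.0722 and 0.225), and that of Slc39a3 did not hold when replicate 3 of the LPD oncogene livers was left out (0.0619). The median log2 fold change was 0.04 over the 6 tested SLC30 genes and 0.17 over the 10 tested SLC39 genes on CD, against −0.01 over all genes. Of the 10 copper handling genes, 1 rose on CD, 2 fell and 7 were not called, near the shares of all tested genes given above. Ceruloplasmin Cp rose on CD by 0.80 ± 0.14 (SE, adjusted p = 0.00124, but 0.175 with the run term), while the copper importer Slc31a1 fell by 0.68 ± 0.18 (SE, adjusted p = 0.0118) and the zinc- and copper-dependent superoxide dismutase Sod1 fell by 0.60 ± 0.18 (SE, adjusted p = 0.0228). The Sod1 call did not hold without CD Vec replicate 2 (−0.39, adjusted p = 0.0712), nor when replicate 1 or 3 of the CD oncogene livers was left out (0.0666 and 0.0512), and the calls of Sod1 and Slc31a1 were lost with scaling by total counts (adjusted p = 0.169 and 0.108) and with the run term (0.445 and 0.419).

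**Figure D4:**
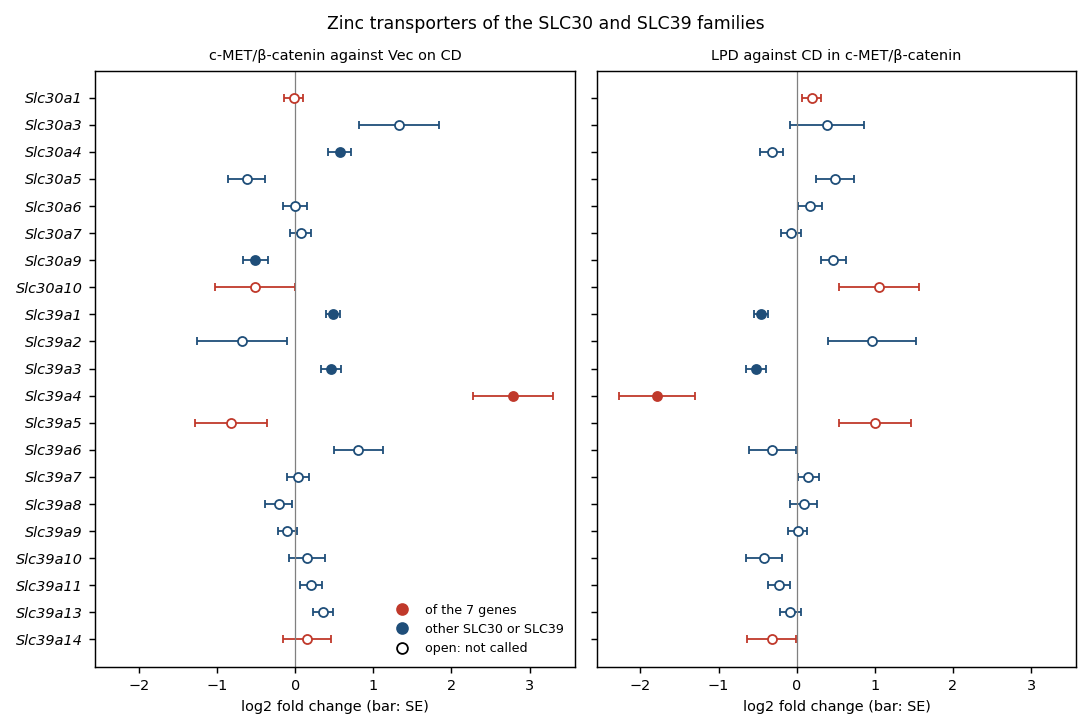
Log2 fold change with SE of the tested SLC30 and SLC39 genes between the injections on CD (left, c-MET/β-catenin minus Vec) and LPD against CD in c-MET/β-catenin livers (right); filled circles had an adjusted p under 0.05, and red marks genes of the 7. Slc39a4, at 2.79 and −1.79, is the called gene farthest from 0 on both sides, and the other called genes lie within 0.57 of 0.

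The genes whose log2 CPM across the 12 libraries was most like that of each gene were found among 9437 genes with a mean of at least 5 CPM, as a description. For Mt1 and Mt2 they were each other (Pearson r = 0.985), then Hilpda (0.960 and 0.956) and Tnip2 (0.960 and 0.944). For Slc39a4 they were Lhpp (0.959), Bag6 (0.957) and Tcirg1 (0.946). For Slc39a14 they were Zfp1 (0.960), Arfgap3 (0.936) and Agt (0.915), and for Slc30a1 Acer3 (0.923), Ctdspl (0.921) and Gpat3 (0.912). Slc30a10 was most like Fcho2 (0.911), Ranbp2 (0.887) and Ube2v2 (0.877), and Slc39a5 like Acadl (0.866), Fitm2 (0.823) and Ehhadh (0.804). The 12 points share 4 groups and their libraries, and no test was made. In CD c-MET/β-catenin replicate 1, Mt1, Mt2 and Hilpda stood at 23.9, 31.6 and 8.96 times the highest other liver. Correlations without that liver were not computed.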

How the data were processed

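The authors deposited integer read counts per gene, not normalized. Per the labels and the study's methods, reads were aligned to mm10 with HISAT2 and counted with featureCounts under Entrez identifiers. Tool versions and the strand and multiple-mapping settings are not given in the sources used here, and rRNA depletion (labels) and mRNA selection (methods) are both described. Column names call the chow samples HPD, and the labels' chow was kept. Of 27179 genes, 93.1% had a symbol. Totals were 19476209 to 31990267 counts per library.

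From the counts, edgeR 4.0.16 (R 4.3.3) was run with TMM factors (0.864 to 1.12), filterByExpr and the robust quasi-likelihood test. All 12 libraries entered 1 fit with 1 coefficient per group, and 13947 genes were tested. The p-values of each comparison were adjusted over these genes by the Benjamini-Hochberg method and called under 0.05. The SE is the log2 fold change over the root of F. Replicates are separate mice. DESeq2 1.42.0, other scalings, no filter, a replicate block, a run term, fits to the groups compared and fits without 1 library were alternatives. The code was tested on simulated data. The genes and lists were chosen with earlier results of these data known. Named were the 7 genes, called genes of the metal lists, genes beside which a result stands, and the 3 genes most like each.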

Additional observations from a re-analysis of the deposited data

Results flagged for a closer look

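For 3 of 27 tested genes of metal handling outside the 7, where 8.91% of all tested genes were called, the change with c-MET/β-catenin differed between the diets by the interaction term of edgeR. The interaction, the log2 fold change on LPD minus that on CD, was −0.47 for Slc39a1 (adjusted p = 0.0426), −0.67 for Slc39a3 (adjusted p = 0.0399) and −0.75 for Cp (adjusted p = 0.0412). On CD these genes changed by 0.48, 0.46 and 0.80. In CD c-MET/β-catenin livers Slc39a1 lay between 90.2 and 93.0 CPM, and in the other 9 livers it lay between 62.3 and 71.4 CPM. Of the 12 fits that left out 1 library, the calls held in 2 for Slc39a1, 4 for Slc39a3 and 2 for Cp, with interactions from −0.54 to −0.43, −0.75 to −0.58 and −0.84 to −0.59. In those fits the adjusted p was at most 0.107, 0.0991 and 0.101. In the same order of genes, the calls were also lost without the filter on low counts (adjusted p = 0.0974, 0.0775 and 0.0612), with the replicate block (0.0772, 0.0762 and 0.0748) and with the run term (0.245, 0.306 and 0.375).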

How the results depend on the processing

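The count of the 7 genes called was 3, 1, 0, 3 and 0 for c-MET/β-catenin on CD, c-MET/β-catenin on LPD, diet in Vec, diet in c-MET/β-catenin and the interaction. In the same order, 35.4%, 1.32%, 0.308%, 20.0% and 8.91% of all tested genes were called. Both counts of 3 include Mt1 and Mt2 through the liver that led to their choice, and these calls are not read as tests. Without that liver the counts were 1, 1, 0, 1 and 0. By DESeq2 it was 1 on CD, 1 on LPD, 1 for diet in Vec and 1 for diet within oncogene livers, each time Slc39a4, since DESeq2 gave no p for Mt1 and Mt2. Without the filter it was 1 on CD, 0 on LPD and 0 for the diet within oncogene livers. In the same order it was 1, 0 and 1 with only the groups compared, and 0, 0 and 0 with the run term. Over fits without 1 library it ran from 1 to 3 on CD, from 0 to 1 on LPD and from 0 to 3 for diet in c-MET/β-catenin, and stayed 0 for the other comparisons. Scaling by size factors (RLE) changed no such count, nor did total counts. The causes were not tested.

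Same-numbered replicates did not deviate together (r from −0.183 to 0.167), so the numbers do not pair the mice. With the replicate block the count was 1 on CD and 1 for diet within oncogene livers, Slc39a4 alone. For Mt1 and Mt2 these comparisons hold the liver that led to their choice and are not read as tests. The block turned the Slc39a14 interaction to 0.03.

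Of the log2 fold changes of named genes under alternatives, 737 kept direction and call, 105 lost the call, 1 gained it and 30 turned sign, none of the latter called. Scaling by total counts shifted the median of all genes by 0.288 on CD, 0.110 on LPD, 0.103 for diet in Vec and −0.178 for the interaction, and turned Slc30a1 to 0.27 and 0.01. The run term turned Slc39a14 to −0.65 on CD, 0.46 for diet in c-MET/β-catenin and 0.76 for the interaction, Slc30a1 to 0.15 for the interaction, and put Mt2 on LPD at 0. Without 1 library, signs turned on CD for Slc30a1 (−0.10 to 0.08), Slc30a10 (−1.18 to 0.01) and Slc39a14 (−0.42 to 0.42), on LPD for Mt2 (−0.36 to 1.65) and Slc39a5 (−0.09 to 0.94), for diet in Vec for Mt2 (−1.87 to 0.55), for diet in c-MET/β-catenin for Slc39a14 (−0.59 to 0.24), and for the interaction for Slc30a1 (−0.18 to 0.01), Slc30a10 (−0.24 to 0.95), Slc39a4 (−0.33 to 0.67) and Slc39a14 (−0.30 to 0.53). Mt1 and Mt2 on CD were 0.86 and 0.89 with the run term. Slc39a4 on LPD was 2.82 (adjusted p = 0.0953) with the run term, 3.04 (0.0594) without the filter and 3.03 (0.0735) with only the groups compared. Slc39a4 for diet in c-MET/β-catenin was −2.07 (0.106) with the run term and −1.78 (0.0642) without the filter. Slc39a5 had between 21 and 123 counts per library.

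The count of other SLC30 and SLC39 genes called, an alternative set chosen after seeing the data, was 4 on CD, 7 by DESeq2 and by total counts, 1 with only the groups compared and 0 with the run term. Over all genes, 4933, 184, 43, 2784 and 1243 were called in the 5 comparisons. Total counts gave 66 for diet in Vec. DESeq2 called 481 on LPD, 340 for diet in Vec and 2032 for the interaction. The run term left 945, 75, 16, 618 and 85. The replicate block left 16 for diet in Vec and 812 for the interaction, and fits to only the groups compared gave 3014 on CD, 505 on LPD and 3 for diet in Vec.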

Other observations

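The level of Mt2 in CD c-MET/β-catenin replicate 1 was among the values that led to the choice of genes, so the ranks there are a description. In that liver Mt2 and Mt1 ranked 1 and 2 of 9664 genes by how far they exceeded the highest of the other 11 livers, by 31.6 and 23.9 times. Among the 15 genes that exceeded it by at least 4 times, chosen after their values were seen, were the lipid droplet gene Hilpda (8.96 times, 47.6 CPM), the transcription factor Klf4 (7.26 times, 36.5 CPM), the endoplasmic reticulum oxidase Ero1a (7.12 times, 122 CPM) and the cell cycle inhibitor Cdkn1a (6.73 times, 242 CPM). In each of the other 11 libraries between 0 and 6 genes did so. Slc39a14 exceeded the highest other liver by 1.51 times, and Slc30a1, Slc30a10 and Slc39a4 did not exceed it.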
